A study of Mus musculus with 18 samples.

Results

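The genes described here are 40 genes of mitosis and cytokinesis, chosen by symbol from knowledge of their roles: cyclins and kinases that drive cell division, spindle checkpoint proteins, kinesin motors, kinetochore and spindle proteins, cytokinesis proteins, and the proliferation mark Mki67. Earlier results of these data were known when these genes and the lists set beside them were chosen. All 40 were found among the 54232 gene identifiers of the deposited nascent RNA count table, and all 40 passed the filter on low counts, the lowest count of any of them in any library being 316 (Ttk in S0-Low replicate 3). The assay was 4sU-seq for nascent RNA, in which cells take up the uridine analogue 4-thiouridine and the RNA made during the labelling time is purified and sequenced. The libraries were 18, with 3 replicates of each of 5 erythroid populations and of lineage-positive (Lin+) cells. The comparison asks how the nascent RNA of the cell division machinery differs along erythroid differentiation.

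All cells came from fetal livers of C57BL/6 embryos at e12.5-e13.5 (days of gestation), with no genetic change, and every population was rested for 6 h after the sort and then labelled with 500 µM 4sU for 45 min. The populations were gated by flow cytometry on lineage markers, on CD71 (the transferrin receptor) and on Ter119 (a surface marker of maturing erythroid cells). S0-Low was lineage-negative and Ter119-negative, with CD71 given as low in the sample titles and as negative in the gate, and the study places stem and progenitor cells and burst-forming erythroid units there. S0-Medium had medium CD71 and stood for early erythroid colony-forming units, S1 had high CD71 and stood for the late ones. S2 had high CD71 with medium Ter119, and S3 high CD71 with high Ter119. Lin+ cells carried markers of other blood lineages, although their label calls them erythroblasts too. The sorted populations are gates and not single cell types, and cell cycle stage was not part of any gate.

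Mitosis is started by the kinase CDK1 bound to cyclin B, which condenses chromosomes and builds the spindle. The spindle checkpoint then holds the anaphase-promoting complex (APC/C) inactive until every kinetochore is attached to microtubules. When the checkpoint is satisfied, APC/C with its activator CDC20 marks cyclin B and the inhibitor of separase for destruction, chromosomes part, and the midzone and contractile ring divide the cell. Most of these genes are transcribed in late S phase, G2 and M through promoter elements bound by the MuvB complex with B-MYB and FOXM1, and erythroid cells keep dividing through much of their maturation before they leave the cell cycle and lose the nucleus.

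Library totals ranged from 9452476 to 40567976 counts. Counts were scaled with TMM, edgeR's correction for library composition, and levels are given as CPM, the count scaled to a fixed library total after that correction. The 9 erythroid markers summed to between 504 and 1089 CPM in the S0-Low libraries and between 29846 and 49084 CPM in those of S3, and the 8 stem and progenitor markers to between 1760 and 2558 CPM in S0-Low and between 28.4 and 29.8 CPM in S3. In Lin+ the erythroid markers summed to only 277 to 352 CPM, below every S0-Low library, and the 9 neutrophil and monocyte markers to between 3244 and 5823 CPM, so the erythroblast label of these cells goes against their markers. Those neutrophil and monocyte markers lay between 373 and 816 CPM in S0-Low, between 0.902 and 1.83 CPM in S1 and between 0.0575 and 2.43 CPM in S3, with 5 of the 9 at 0 in all 3 S3 libraries. The 7 lymphoid, 8 macrophage and 6 hepatocyte markers summed to at most 1.08, 0.151 and 0.379 CPM in any S3 library. In S0-Low the lymphoid markers summed to between 97 and 172 CPM, the 5 endothelial ones to between 80.5 and 268 CPM and the 6 megakaryocyte ones to between 72.2 and 214 CPM. Of the 5 endothelial markers 4 fell between S3 and S0-Low (22.4% of all genes), and 2 did without S3 replicate 3 (14.7%). The part of these markers in the differences between S3 and S0-Low was not tested. In each of S1, S2 and S3, replicate 3 was the highest of the 3 libraries for most of the 40 genes (31, 36 and 38 of them), against 38.2%, 33.9% and 26.8% of all 16555 genes tested, so the counts of genes between S3 and S0-Low and between S3 and S2 are also given without S3 replicate 3. Because these are bulk samples, more dividing cells and more RNA made per dividing cell cannot be told apart.

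As a group the 40 genes lay low in S0-Low and S0-Medium, had higher means in S1 and S2 without any single gene passing the test at those steps, and were highest in S3. The 40 genes together took 0.898% ± 0.12 (SD, n = 3) of all counts for S0-Low and 0.875% ± 0.12 for S0-Medium. The share was 1.24% ± 0.24 for S1, 1.62% ± 0.43 for S2, 3.19% ± 1.4 for S3 and 0.696% ± 0.05 for Lin+. The mean over the 40 genes of log2(CPM + 0.5) was 7.03 ± 0.10 for S0-Low and 6.99 ± 0.13 for S0-Medium (SD over 3 libraries). It was 7.44 ± 0.18 for S1, 7.95 ± 0.41 for S2, 9.13 ± 0.63 for S3 and 6.76 ± 0.13 for Lin+. The 3 S3 libraries stood at 8.59, 8.99 and 9.82 on this scale, all above the highest S2 library at 8.41. Among the 5 erythroid populations the highest mean level lay in S3 for 40 of 40 genes, where 28% of all genes tested have theirs, and the lowest in S0-Medium for 25 and in S0-Low for 15. Lin+ was not counted in these orders, and its mean profile lay below that of every erythroid population. For 38 of the 40 the population mean was higher at every step from S0-Medium to S3 (16.5% of all genes tested), the exceptions being Bub1b and Kif20b.

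**Figure D1:**
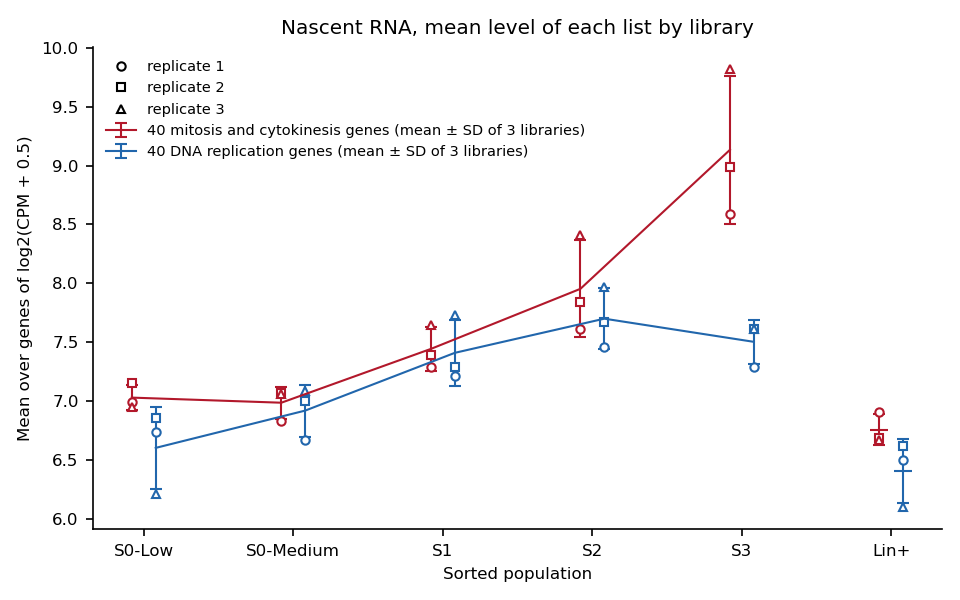
Mean over genes of log2(CPM + 0.5) in each library (open marks, 1 shape per replicate), with the mean ± SD of the 3 libraries of each sorted population, for the 40 mitosis and cytokinesis genes (red) and 40 DNA replication genes (blue). The mitosis genes go from 7.95 in S2 to 9.13 in S3, while the replication genes go from 7.70 to 7.50.

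Between S3 and S0-Low, 39 of the 40 genes rose and 0 fell (quasi-likelihood test of edgeR, adjusted p under 0.05 by the Benjamini-Hochberg method across 16555 genes), where 13.4% of all genes rose and 22.4% fell. Among the 3979 genes with at least the mean level of the lowest of the 40 (67.9 CPM, Ttk), 36.4% rose. The log2 fold changes of the 40 ranged from 0.36 to 3.76 with a median of 2.13, against a median of -0.54 over all genes tested and 0.45 over those 3979. In 38 of the 40 every S3 library lay above every S0-Low library (16.6% of all genes), the exceptions being Ttk and Kif20b. Scaling by library totals in place of TMM moved the median of all genes to -1.36 and the split of all calls from 2220 higher and 3712 lower to 1156 higher and 6228 lower. On that scale the 40 genes had a median of 1.24, and 30 still rose (6.98% of all genes) and 0 fell. The 9 that no longer passed were Foxm1, Kif20a, Kif2c, Espl1 and the 5 spindle checkpoint genes. Without S3 replicate 3 the count was 34 (9.85% of all genes rose), the genes lost being Kif2c, Mad2l1, Ttk, Bub1b and Espl1.

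The promoters of 5 of the genes are shown because they hold the sequence elements most of these genes share and the exceptions to it: Cdk1 and Mki67, with several elements each, Plk1, with 1 cell cycle homology region and 1 CCAAT box, Kif20b, the gene that did not pass, and Nusap1, the gene with the largest difference. Each runs from 250 bases before to 50 bases after the annotated start in the direction of transcription, from RefSeq on GRCm38.p6, and capitals mark matches to the cell cycle homology region (CHR, letters TTTGAA or TTCGAA), the CCAAT box (CCAAT) or an E2F site (TTTGGCGC or TTTCGCGC), searched on both strands. They lie at chr10:69352863-69353162 (minus strand), chr7:135716330-135716629 (minus strand), chr7:122159185-122159484 (plus strand), chr19:34922108-34922407 (plus strand) and chr2:119618048-119618347 (plus strand).
Cdk1: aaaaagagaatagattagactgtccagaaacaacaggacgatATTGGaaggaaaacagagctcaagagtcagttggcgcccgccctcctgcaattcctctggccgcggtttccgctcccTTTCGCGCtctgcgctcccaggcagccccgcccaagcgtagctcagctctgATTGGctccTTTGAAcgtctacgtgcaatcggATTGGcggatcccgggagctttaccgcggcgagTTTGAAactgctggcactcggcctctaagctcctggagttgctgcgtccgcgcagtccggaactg
Mki67: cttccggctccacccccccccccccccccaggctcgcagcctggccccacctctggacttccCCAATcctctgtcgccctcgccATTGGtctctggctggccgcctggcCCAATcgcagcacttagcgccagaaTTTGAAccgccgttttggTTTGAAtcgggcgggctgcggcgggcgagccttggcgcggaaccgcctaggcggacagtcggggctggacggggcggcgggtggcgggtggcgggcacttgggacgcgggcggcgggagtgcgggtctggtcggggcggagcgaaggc
Plk1: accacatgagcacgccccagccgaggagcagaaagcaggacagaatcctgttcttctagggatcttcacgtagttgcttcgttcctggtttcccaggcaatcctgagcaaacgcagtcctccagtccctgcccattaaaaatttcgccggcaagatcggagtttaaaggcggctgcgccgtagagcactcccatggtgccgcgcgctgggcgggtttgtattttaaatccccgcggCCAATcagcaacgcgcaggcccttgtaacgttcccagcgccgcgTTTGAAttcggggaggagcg
Kif20b: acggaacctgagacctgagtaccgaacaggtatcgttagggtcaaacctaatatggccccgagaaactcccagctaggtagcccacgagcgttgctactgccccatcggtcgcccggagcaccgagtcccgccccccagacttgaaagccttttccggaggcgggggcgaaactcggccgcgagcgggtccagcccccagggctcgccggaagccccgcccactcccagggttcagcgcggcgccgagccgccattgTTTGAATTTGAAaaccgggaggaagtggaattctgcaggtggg
Nusap1: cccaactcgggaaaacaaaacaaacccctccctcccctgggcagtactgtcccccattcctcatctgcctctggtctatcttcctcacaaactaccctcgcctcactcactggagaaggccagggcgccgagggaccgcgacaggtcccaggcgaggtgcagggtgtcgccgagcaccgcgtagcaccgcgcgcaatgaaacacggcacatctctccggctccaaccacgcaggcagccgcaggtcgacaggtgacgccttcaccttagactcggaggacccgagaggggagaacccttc

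The promoter table held 37 promoters for 34 of the 40 genes; Aurkb, Ccna2, Foxm1, Incenp, Kif20a and Tpx2 had no entry. A CHR match was present in 30 of the 37 (81.1%), against 19.2% of all 32851 promoters in the table, 14% of the 12274 promoters of genes tested and 19.4% of 36 promoters of DNA replication genes. A CCAAT box stood in 29 (78.4%, against 37.4% of all promoters), at least 2 of them in 20 (54.1%, against 11.7%), and CHR together with CCAAT in 26 (70.3%, against 7.52%). In the DNA replication promoters these shares were 55.6%, 33.3% and 13.9%. The E2F letters were found in 1 promoter, that of Cdk1 (2.7%), against 0.813% of all promoters and 27.8% of those of DNA replication genes. The median position of a CHR match was 5 bases before the start site, with its quartiles at 98 bases before and 13 bases after, and that of a CCAAT box 65 bases before. Among all matches in these promoters 1 pair of different motifs overlapped. None of the 3 motifs was found in the promoters of Nusap1, Nuf2, Birc5 and Mad2l1, whose log2 fold changes between S3 and S0-Low were 3.76, 2.50, 2.53 and 1.15, while Kif20b, at 0.36, held 2 CHR matches and no CCAAT box. Anln, Ndc80 and Kif2c also held CHR matches without a CCAAT box, and all of them rose between S3 and S0-Low. Whether the motifs go with the size of the difference was not tested. All of these are matches of letters in a window, not measured binding.

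**Figure D2:**
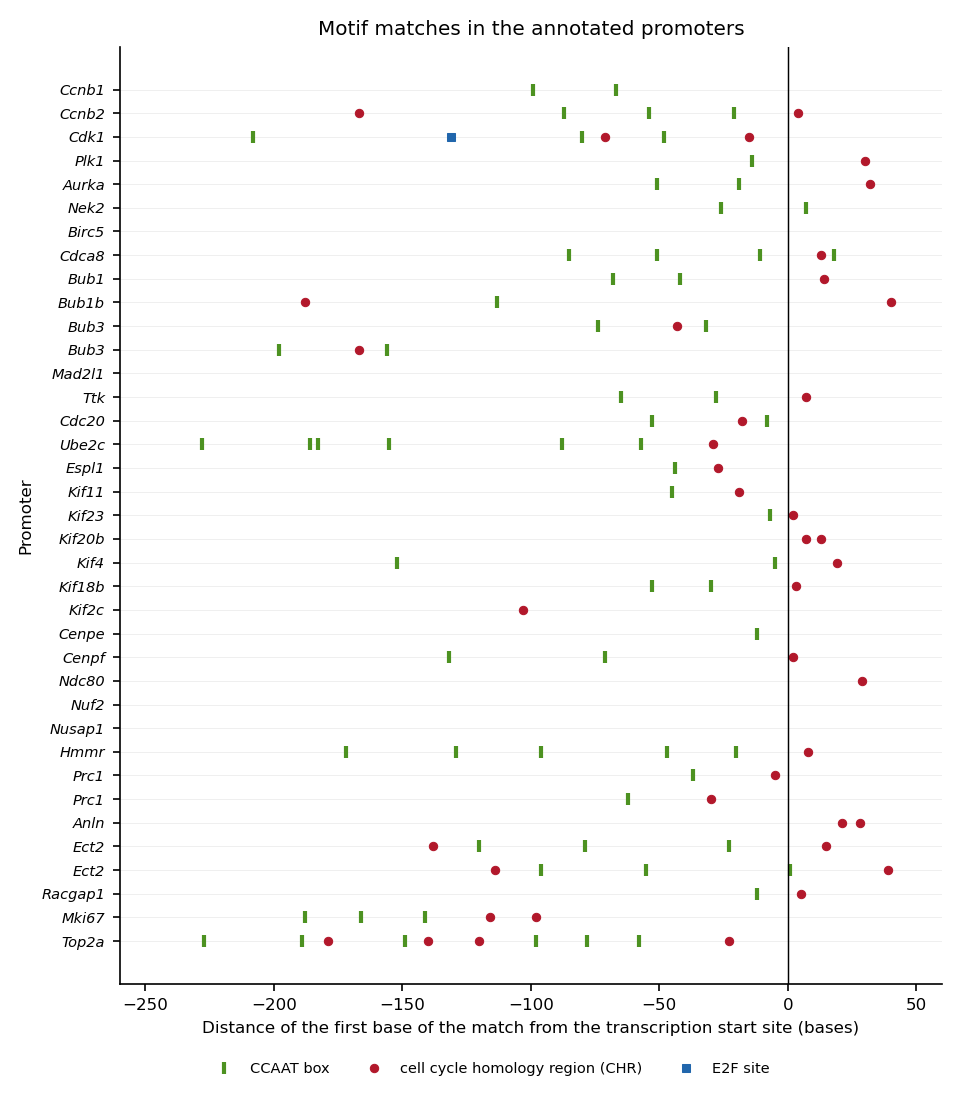
Distance in bases of each motif match from the annotated transcription start site (0) in 37 promoters of 34 of the genes, with CCAAT boxes as green bars, cell cycle homology regions (CHR) as red circles and the E2F site as a blue square. CHR matches have their median at -5 and their lower quartile at -98, CCAAT boxes have their median at -65, and either kind can lie further out in a given promoter.

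Cdk1 and its cyclins all rose in S3. Cdk1, the kinase that drives entry into mitosis (ENSMUSG00000019942, chr10:69335146-69352912 on GRCm38), stood at 109, 167 and 113 CPM in S0-Low, 96.7, 136 and 129 in S0-Medium and 127, 150 and 185 in S1. The S2 libraries had 158, 210 and 317 CPM, S3 410, 379 and 797 CPM and Lin+ 101, 127 and 106 CPM. The S3 libraries lay above all others, and S2 replicate 3 came next. Its log2 fold change between S3 and S0-Low was 2.03 ± 0.36 (standard error; edgeR adjusted p = 0.000631). Ccnb1, a B-type cyclin that activates CDK1 (chr13:100778739-100786486), had 115, 150 and 192 CPM in S0-Low, 112, 145 and 180 in S0-Medium and 178, 191 and 221 in S1. The values in S2 were 218, 261 and 405 CPM, those in S3 465, 503 and 630 CPM and those in Lin+ 90.5, 86 and 94.5 CPM. Its S3 libraries did not overlap any other population, at a log2 difference from S0-Low of 1.80 ± 0.31 (edgeR adjusted p = 0.000501), and 27.2% of the 31-base words in its annotated transcripts also occur in other genes, pseudogenes among them, so its counts are uncertain where the counting split such reads.

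Ccna2, cyclin A2, which acts from S phase into early mitosis (chr3:36564865-36573038), gave 154, 200 and 145 CPM in S0-Low, 140, 240 and 210 in S0-Medium and 301, 329 and 462 in S1. S2 held 482, 529 and 840 CPM, S3 907, 1372 and 2238 CPM and Lin+ 187, 142 and 106 CPM. Every S1 library lay above every S0-Medium library and every S2 library above every S1 library, and S3 differed from S0-Low by a log2 difference of 3.18 ± 0.39 (edgeR adjusted p = 3.28e-05). Ccnb2, the other B-type cyclin, had the widest spread of the 4 in S3 relative to its mean, between 210 and 625 CPM in S3 against 56.2 to 77.3 CPM in S0-Low, and differed by 2.57 ± 0.53 (edgeR adjusted p = 0.00191).

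All 4 mitotic kinases rose. Plk1, which matures centrosomes and acts through to cytokinesis (chr7:122159435-122169884), stood at 100, 118 and 170 CPM in S0-Low, 88.1, 105 and 129 in S0-Medium and 140, 127 and 173 in S1. Those of S2 were 167, 202 and 297 CPM, those in S3 327, 490 and 517 CPM and those in Lin+ 95.9, 91.8 and 77.8 CPM. The S3 libraries were the highest, and S2 replicate 3 came close to S3 replicate 1. Plk1 differed by 1.78 ± 0.32 between S3 and S0-Low (edgeR adjusted p = 0.000673), and 15.1% of its sequence words are shared, with a pseudogene.

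Aurkb, the kinase of the chromosomal passenger complex that corrects wrong attachments (chr11:69045624-69051664), had 84.1, 83.4 and 49.3 CPM in S0-Low, 64.8, 78.6 and 68.7 in S0-Medium and 85.9, 85.6 and 99.6 in S1. In S2 they were 101, 135 and 197 CPM, those in S3 187, 304 and 524 CPM and those in Lin+ 101, 74 and 58.3 CPM. S3 replicate 1 lay below S2 replicate 3, so these neighbours overlapped, while S3 and S0-Low did not, at a log2 difference of 2.23 ± 0.38 (edgeR adjusted p = 0.000464). Aurka, which works at spindle poles, differed by 2.08 ± 0.40, from 104 to 147 CPM in S0-Low to between 264 and 711 CPM in S3, and Nek2, which helps centrosomes part, by 2.05 ± 0.37.

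The 3 partners of Aurora B in the passenger complex rose together with it. Incenp, the scaffold of the complex (chr19:9872295-9899489), gave 312, 279 and 238 CPM in S0-Low, 313, 278 and 187 in S0-Medium and 334, 327 and 280 in S1. Levels in S2 were 326, 453 and 565 CPM, those in S3 768, 1164 and 1816 CPM and those in Lin+ 303, 209 and 215 CPM. The S3 libraries lay above all other libraries, with a log2 difference from S0-Low of 2.18 ± 0.34 (edgeR adjusted p = 0.000246). Birc5, which encodes survivin, differed by 2.53 ± 0.42 and Cdca8, which encodes borealin, by 1.87 ± 0.32.

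The 5 spindle checkpoint genes had the lowest median log2 fold change between S3 and S0-Low of the roles with more than 1 gene, 1.3. With library totals 0 of the 5 passed, where 6.98% of all genes rose, so this count by itself gives no result about them. Mad2l1, whose product binds and blocks CDC20 (chr6:66535221-66541107), stood at 58, 84.5 and 68.9 CPM in S0-Low, 42.5, 84 and 76.8 in S0-Medium and 83.5, 101 and 100 in S1. S2 gave 104, 117 and 227 CPM, S3 147, 141 and 183 CPM and Lin+ 48.3, 57.5 and 49.7 CPM. S2 replicate 3 was its highest library, above all 3 of S3. Its log2 difference between S3 and S0-Low was 1.15 ± 0.35 (edgeR adjusted p = 0.0182), and between S3 and S2 it was 0.08 ± 0.34 with TMM and -0.41 with library totals, neither past the threshold. The call against S0-Low was lost without S0-Low replicate 1 (adjusted p = 0.0865 in edgeR) or S3 replicate 3 (0.065).

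Bub3, which docks the checkpoint proteins at kinetochores, was the most even of the 40 in S3, at 240, 240 and 230 CPM against 73.3, 102 and 68.6 CPM in S0-Low (log2 difference 1.54 ± 0.27). Bub1, a checkpoint kinase, differed by 1.50 ± 0.34, and Bub1b, which encodes the CDC20 inhibitor BubR1, by 1.30 ± 0.34, with 0.00 between S2 and S1. Ttk, the kinase that switches the checkpoint on, depended on single libraries: its S3 values were 51.8, 81.3 and 187 CPM against 59.5, 53.6 and 26.2 CPM in S0-Low. Its adjusted p went from 0.0386 (log2 difference 1.20 ± 0.42) to 0.32 without S3 replicate 3 (0.50), to 0.14 without S0-Low replicate 3 (0.87), to 0.0559 without S0-Low replicate 1 (1.37) and to 0.0784 without S0-Low replicate 2 (1.26).

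The 3 genes of anaphase onset rose, Ube2c with the largest difference. Ube2c, the ubiquitin-conjugating enzyme that works with APC/C (chr2:164769929-164772902), had 88.5, 99.4 and 31.2 CPM in S0-Low, 77.6, 88.5 and 89.8 in S0-Medium and 123, 113 and 172 in S1. The S2 libraries had 217, 227 and 230 CPM, S3 499, 809 and 1195 CPM and Lin+ 122, 82.4 and 63.1 CPM. Every S3 library lay above every S2 library, which lay above every S1 library in turn. The log2 difference between S3 and S0-Low was 3.51 ± 0.43 (edgeR adjusted p = 3.28e-05), with S0-Low replicate 3 well below the other S0-Low libraries. Of the sequence words of Ube2c, 20.5% are shared with other genes, among which Tnnc2 shares the most.

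Cdc20, the APC/C activator held back by the checkpoint (chr4:118432901-118437343), stood at 97.1, 119 and 71.9 CPM in S0-Low, 78.5, 99.7 and 124 in S0-Medium and 112, 122 and 150 in S1. The values in S2 were 165, 206 and 178 CPM, those in S3 205, 436 and 384 CPM and those in Lin+ 73.7, 69.7 and 74.4 CPM. S3 replicate 1 was no higher than S2 replicate 2, while all S3 libraries lay above S0-Low. It differed by 1.83 ± 0.33 (edgeR adjusted p = 0.000652), with 24.8% of its words shared, the gene that shares the most being a pseudogene. Espl1, which encodes separase, the protease that cuts cohesin, differed by 1.43 ± 0.37, with 150, 269 and 474 CPM in S3 against 141, 107 and 83.8 CPM in S0-Low.

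Of the 7 kinesins, motor proteins that walk on or shorten microtubules, 6 rose and 1 did not pass. Kif4, a motor on chromosome arms that also works at the midzone (chrX:100626065-100727271), gave 133, 148 and 151 CPM in S0-Low, 138, 143 and 164 in S0-Medium and 178, 181 and 226 in S1. S2 held 238, 274 and 393 CPM, S3 621, 746 and 1300 CPM and Lin+ 119, 113 and 109 CPM. There was no overlap between S3 and S2, between S2 and S1 or between S1 and S0-Medium, and 15.7% of its words are shared, while S3 differed from S0-Low by 2.62 ± 0.32 (edgeR adjusted p = 3.28e-05). Kif18b, which shortens astral microtubules (chr11:102905518-102925134), had 76.8, 67.4 and 50.2 CPM in S0-Low, 68.1, 69.5 and 95.1 in S0-Medium and 81, 83.3 and 138 in S1. Those of S2 were 117, 160 and 286 CPM, those in S3 370, 547 and 935 CPM and those in Lin+ 72, 65.7 and 54.6 CPM. Its S0-Medium libraries overlapped those of S0-Low, and S3 stood apart from all others, by 3.25 ± 0.43 against S0-Low (edgeR adjusted p = 5.76e-05).

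Kif11, the motor that pushes spindle poles apart (chr19:37376382-37421863), stood at 237, 241 and 324 CPM in S0-Low, 204, 233 and 280 in S0-Medium and 291, 302 and 493 in S1. In S2 they were 344, 397 and 824 CPM, those in S3 887, 990 and 2246 CPM and those in Lin+ 227, 177 and 201 CPM. In each of S1, S2 and S3 its replicate 3 stood well above the other replicates, and the log2 difference between S3 and S0-Low was 2.36 ± 0.42 (edgeR adjusted p = 0.000667). Kif23, the motor of the centralspindlin complex (chr9:61917277-61946810), had 110, 106 and 122 CPM in S0-Low, 94.4, 88 and 61.9 in S0-Medium and 96.8, 112 and 118 in S1. Levels in S2 were 155, 158 and 251 CPM, those in S3 400, 422 and 1059 CPM and those in Lin+ 121, 107 and 126 CPM. It was lowest in S0-Medium and the S3 libraries stood above all others, by 2.47 ± 0.38 against S0-Low (edgeR adjusted p = 0.000186) and by 1.74 ± 0.37 against S2.

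Kif20b, a motor of late cytokinesis (chr19:34922335-34975750), was the 1 gene that did not pass in any comparison made here, at 189, 215 and 169 CPM in S0-Low, 191, 213 and 125 in S0-Medium and 223, 241 and 169 in S1. S2 gave 227, 172 and 164 CPM, S3 196, 215 and 324 CPM and Lin+ 134, 119 and 133 CPM. The 5 erythroid populations overlapped, and S3 replicate 3 was the highest library. Its log2 difference between S3 and S0-Low was 0.36 ± 0.29 (edgeR adjusted p = 0.352), and it was -0.51 with library totals (adjusted p = 0.138). Kif2c, which takes microtubules apart at kinetochores (chr4:117159633-117182624), gave 87.8, 88.4 and 102 CPM in S0-Low, 65.2, 86.3 and 109 in S0-Medium and 78.4, 93.2 and 103 in S1. The S2 libraries had 87.3, 134 and 173 CPM, S3 124, 198 and 313 CPM and Lin+ 59.1, 68.4 and 71.3 CPM. S3 lay above S0-Low in every library but overlapped S2, at a log2 difference from S0-Low of 1.19 ± 0.35 (edgeR adjusted p = 0.0171) that no longer passed without S3 replicate 3, S0-Low replicate 1 or S0-Low replicate 2. Kif20a, which brings the passenger complex to the midzone, differed by 1.68 ± 0.37, with 30.2% of its sequence words shared with the gene Cdc23.

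All 4 kinetochore genes rose. Nuf2, a subunit of the NDC80 complex that holds microtubules (chr1:169497934-169531464), had the smallest adjusted p of the 40, with 95.4, 89.4 and 75.9 CPM in S0-Low, 89.3, 82.2 and 86.6 in S0-Medium and 118, 119 and 121 in S1. The values in S2 were 173, 173 and 273 CPM, those in S3 380, 433 and 665 CPM and those in Lin+ 95.4, 63.6 and 63.5 CPM. Its replicates were close to each other in S0-Low, S0-Medium and S1, and S3 differed from S0-Low by 2.50 ± 0.29 (edgeR adjusted p = 2.51e-05). Cenpf, a large outer kinetochore protein (chr1:189640606-189688107), stood at 236, 307 and 153 CPM in S0-Low, 285, 310 and 188 in S0-Medium and 371, 449 and 318 in S1. S2 held 437, 323 and 532 CPM, S3 995, 1096 and 3006 CPM and Lin+ 243, 147 and 222 CPM. S3 replicate 3 was 2.88 times the mean of the other S3 libraries, which still lay above every library outside S3, and the log2 difference from S0-Low was 2.87 ± 0.44 (edgeR adjusted p = 0.000187). Ndc80 itself differed by 2.65 ± 0.62, with 355, 423 and 1310 CPM in S3 and an S2 library at 432 CPM, and Cenpe, a kinetochore motor, by 2.07 ± 0.34.

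The 3 spindle proteins rose, and among them Nusap1, a microtubule-bundling protein (chr2:119618298-119650165), had the largest fitted difference of the 40, 3.76 ± 0.74 (edgeR adjusted p = 0.00129). It stood at 72.9, 70 and 89.2 CPM in S0-Low, 46.2, 50.7 and 112 in S0-Medium and 62.2, 81.1 and 247 in S1. Those of S2 were 104, 147 and 580 CPM, those in S3 559, 638 and 1945 CPM and those in Lin+ 66.9, 60.3 and 86.4 CPM. Its standard error was also the largest. S3 replicate 3 was 3.25 times the mean of the other S3 libraries and S2 replicate 3 lay above S3 replicate 1. Tpx2, which activates Aurora A and nucleates microtubules at chromosomes (chr2:152847964-152895321), gave 319, 314 and 216 CPM in S0-Low, 259, 296 and 233 in S0-Medium and 356, 370 and 382 in S1. In S2 they were 462, 559 and 702 CPM, those in S3 1074, 1299 and 1980 CPM and those in Lin+ 295, 200 and 217 CPM. No library of S3 overlapped S2, and S3 differed from S0-Low by 2.36 ± 0.30 (edgeR adjusted p = 4.88e-05).

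Hmmr, which helps place the spindle poles (chr11:40701388-40733464), had 153, 211 and 204 CPM in S0-Low, 142, 221 and 232 in S0-Medium and 273, 326 and 334 in S1. Levels in S2 were 352, 419 and 628 CPM, those in S3 883, 889 and 1852 CPM and those in Lin+ 142, 120 and 129 CPM. Every S3 library lay above every S2 library, and S3 differed from S0-Low by 2.67 ± 0.36 (edgeR adjusted p = 7.2e-05).

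The 4 cytokinesis genes rose. They were the 1 role with more than 1 gene in which every gene also passed between S3 and S2 (3.26% of all genes rose). With library totals 2 of the 4 passed at that step (1.74% of all genes). With only the 6 libraries compared all 4 no longer passed (0.63% of all genes rose). Without S2 replicate 1, S2 replicate 2 or S3 replicate 3, Prc1, Racgap1 and Ect2 no longer passed at that step. Prc1, which bundles the midzone microtubules (chr7:80294445-80316259), stood at 157, 222 and 129 CPM in S0-Low, 163, 254 and 170 in S0-Medium and 252, 349 and 322 in S1. S2 gave 343, 551 and 799 CPM, S3 806, 1229 and 2354 CPM and Lin+ 146, 153 and 161 CPM. S3 replicate 1 was only just above S2 replicate 3, and the log2 difference between S3 and S0-Low was 3.11 ± 0.43 (edgeR adjusted p = 8.66e-05). Anln, the anillin scaffold of the contractile ring (chr9:22331214-22389211), gave 149, 179 and 189 CPM in S0-Low, 138, 164 and 178 in S0-Medium and 152, 184 and 216 in S1. The S2 libraries had 188, 222 and 350 CPM, S3 598, 555 and 1041 CPM and Lin+ 112, 149 and 138 CPM. The other erythroid libraries lay between 138 and 222 CPM apart from S2 replicate 3, and S3 differed from S0-Low by 2.08 ± 0.32 (edgeR adjusted p = 0.000219).

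Racgap1, the partner of Kif23 in centralspindlin (chr15:99620496-99651656), had 65.9, 66.2 and 86.2 CPM in S0-Low, 58.2, 53.3 and 65.7 in S0-Medium and 78.3, 69.3 and 94.7 in S1. The values in S2 were 81, 117 and 195 CPM, those in S3 218, 397 and 706 CPM and those in Lin+ 74.2, 60 and 54.8 CPM. Of these, S3 replicate 1 came closest to S2, and S3 differed from S0-Low by 2.60 ± 0.41 (edgeR adjusted p = 0.000263). Ect2, which turns on RhoA at the division plane, differed by 2.00 ± 0.41, with 233, 256 and 677 CPM in S3 against 79, 81.5 and 131 CPM in S0-Low.

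Mki67 and Top2a were the most abundant of the 40 per length of transcript in every population. Mki67, which coats mitotic chromosomes and marks proliferating cells (chr7:135689784-135716450), stood at 1377, 2116 and 1628 CPM in S0-Low, 1737, 2516 and 1695 in S0-Medium and 3264, 4155 and 4868 in S1. S2 held 4595, 4602 and 8795 CPM, S3 12275, 14432 and 38033 CPM and Lin+ 1692, 1070 and 1353 CPM. S3 lay above all other populations and S1 above S0-Medium without overlap, and S3 differed from S0-Low by 3.66 ± 0.48 (edgeR adjusted p = 5.62e-05). Mki67 alone took between 0.151% and 0.253% of all counts in S0-Low and 0.902%, 0.977% and 2.2% in the S3 libraries. Top2a, the topoisomerase that untangles sister chromosomes (chr11:98992947-99024199), gave 686, 875 and 725 CPM in S0-Low, 603, 840 and 683 in S0-Medium and 956, 1003 and 1150 in S1. Those of S2 were 1292, 1206 and 2213 CPM, those in S3 2310, 2471 and 5694 CPM and those in Lin+ 743, 530 and 546 CPM. Its S2 replicate 3 came close to S3 replicate 1, and it differed by 2.19 ± 0.37 between S3 and S0-Low (edgeR adjusted p = 0.000453).

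Per kilobase of the longest annotated transcript, the mean level in S3 was 2142 CPM for Mki67, 669 CPM for Top2a and 508 CPM for Ccna2, and lowest for Ttk at 36.7 CPM, with a median of 183 CPM over the 40. The same median was 38.4 CPM per kilobase for S0-Low, 37.8 for S0-Medium, 50.2 for S1, 75 for S2 and 32.8 for Lin+. Foxm1, the transcription factor that drives many of these genes, was among the lower ones at 53.8 CPM per kilobase in S3, and it differed by 1.49 ± 0.32 between S3 and S0-Low (edgeR adjusted p = 0.0024), a rise that did not pass with library totals.

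**Figure D3:**
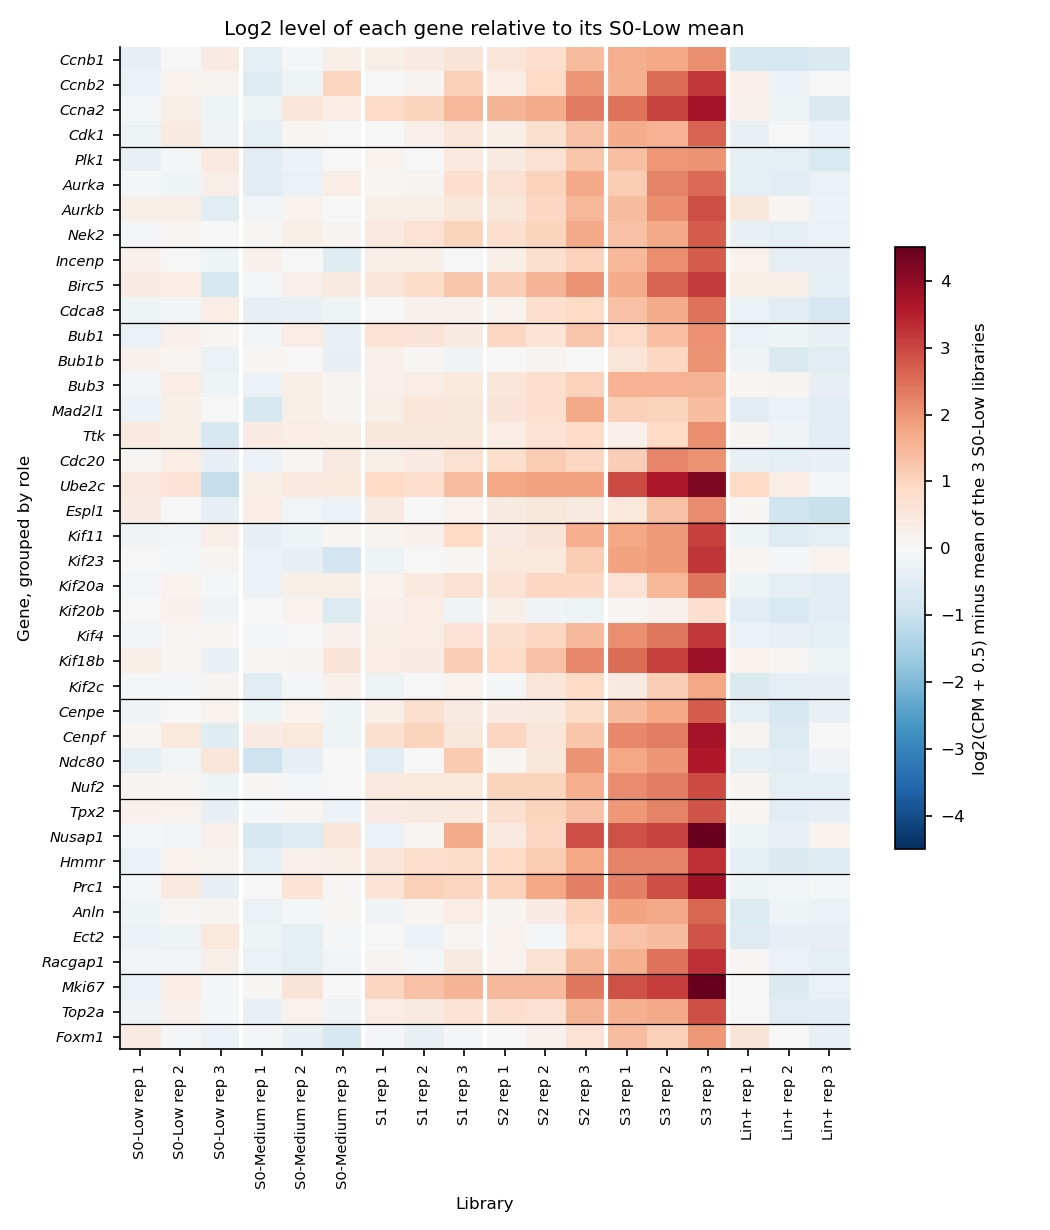
Log2(CPM + 0.5) of each gene in each of the 18 libraries, minus the mean of that gene in the 3 S0-Low libraries (red higher, blue lower), with genes grouped by role and separated by lines. The S3 columns are red for nearly all genes and deepest in S3 replicate 3, and Kif20b stays pale throughout.

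**Figure D4:**
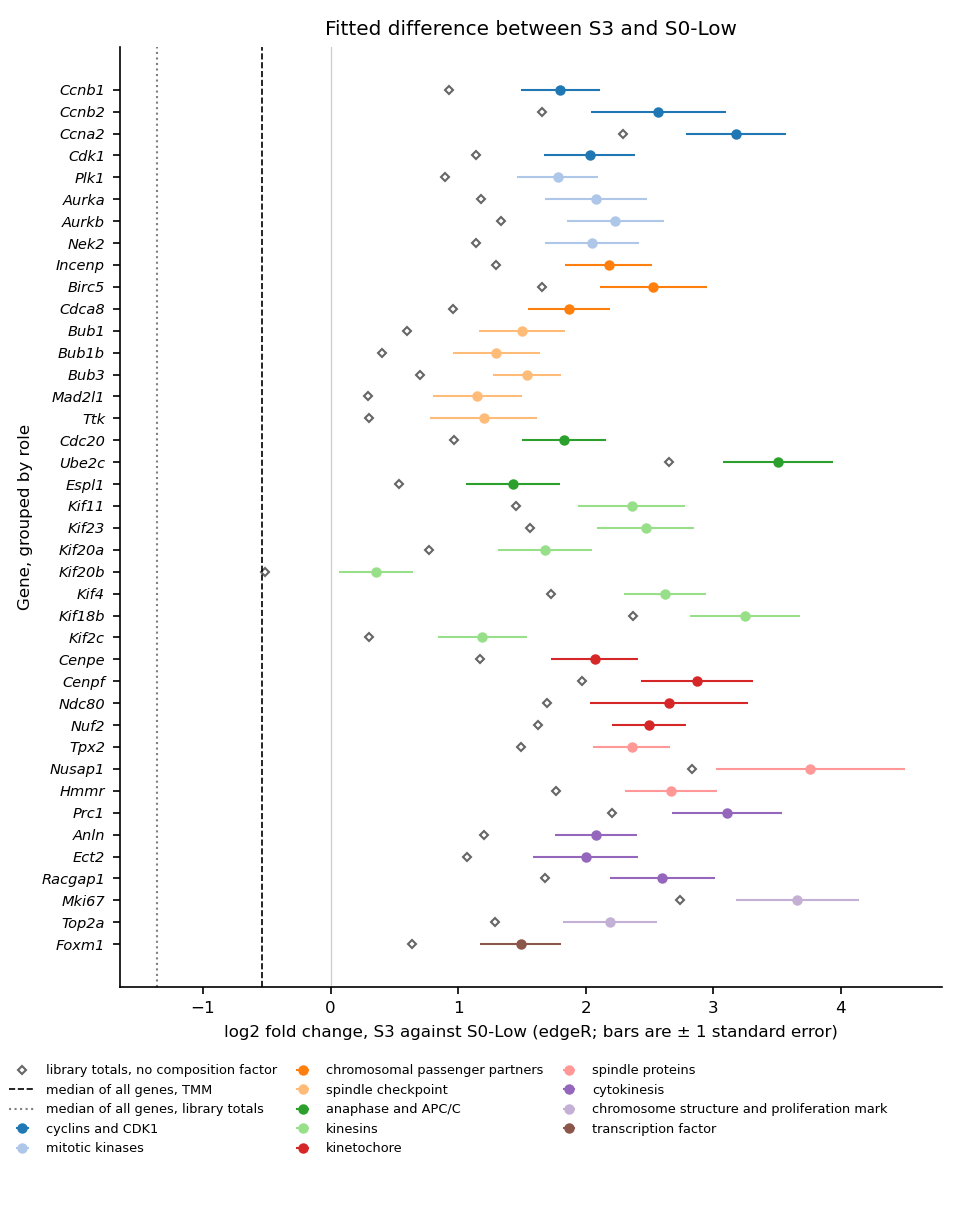
Log2 fold change of each gene between S3 and S0-Low from edgeR with TMM (filled circles, ± 1 standard error, coloured by role) and with library totals (open diamonds), with the medians of all genes tested on each scale as dashed (-0.54) and dotted (-1.36) lines. All circles lie above 0, from 0.36 (Kif20b) to 3.76 (Nusap1), and the diamonds lie lower by a similar amount for every gene.

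The differences were unequal over the steps. Between S0-Medium and S0-Low 0 of the 40 genes passed in either direction (0% of all genes at an adjusted p under 0.05 in edgeR), and 0 at an unadjusted p under 0.05, where 1.78% of all genes were higher and 1.47% lower. The median log2 difference was -0.06, with 15 genes above and 25 below 0. Between S1 and S0-Medium 40 of 40 differences were positive, with a median of 0.44 against -0.02 for all genes, but 0 passed (0% of all genes), and 2, Ccna2 and Mki67, were higher at an unadjusted p under 0.05, where 1.68% of all genes were higher and 5.18% lower. With library totals 38 of these differences were positive. Between S2 and S1, 38 of 40 were positive with a median of 0.57 against -0.05, 0 passed (0% of all genes), and 7 were higher at an unadjusted p under 0.05 (1% of all genes higher, 3.03% lower). DESeq2 also called 0 of the 40 genes at each of these 3 steps. Over all genes it called 0.169% higher and 0.115% lower between S0-Medium and S0-Low. Those shares were 0.199% and 2.22% between S1 and S0-Medium, and 0.0362% and 0.858% between S2 and S1. Same-numbered libraries deviated together here, and within all 3 pairs S1 lay above S0-Medium for 38 of the 40 genes (23.6% of all genes) and S2 above S1 for 34 (16.5% of all genes). With the replicate number as a block 0 of the 40 still passed at these steps. In that fit 0.169% of all genes were higher and 0.175% lower between S1 and S0-Medium, and 0% between S2 and S1. Of the 40, 10 (3.85% of all genes) and 18 (3.01%) were higher at an unadjusted p under 0.05.

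The step from S2 to S3 held the largest differences, with 40 of 40 positive and a median of 1.27 against -0.31 for all genes and 0.08 for the genes at or above the lowest of the 40 in mean level. Of the 40, 22 rose at an adjusted p under 0.05 and 0 fell, where 3.26% of all genes rose and 6.09% fell, and where 10.2% of the genes at or above the lowest of the 40 in mean level rose. In 25 every S3 library lay above every S2 library, against 8.99% of all genes. The largest differences were those of Cenpf (1.99 ± 0.42), Nusap1 (1.92 ± 0.68, not past the threshold), Ube2c (1.90 ± 0.40), Mki67 (1.85 ± 0.44) and Racgap1 (1.75 ± 0.40). Without S3 replicate 3 these were 1.27, 1.10, 1.53, 1.14 and 1.22, and Mki67 and Racgap1 no longer passed. This count depended on single libraries and on the scaling. It was 4 without S2 replicate 1 (0.934% of all genes rose), 4 without S2 replicate 2 (1.02%) and 5 without S3 replicate 3 (1.5%). It was 11 with library totals (1.74% of all genes). With only the 6 libraries compared it was 0 (0.63%), with 30 at an unadjusted p under 0.05 (8.82%). It was 28 without S2 replicate 3 (4.8%), 29 without any replicate 3 library (7.33%) and 32 with the replicate number as a block (7.3%), so the share of all genes moved in the same direction as the count in each of these fits. With library totals the median was 0.72 against -0.82 for all genes, and 38 of the 40 differences were positive, those of Mad2l1 and Kif20b being negative. The calls over all genes went from 540 higher and 1008 lower to 288 higher and 2264 lower. At the same step the summed 5 endothelial markers went from between 0.169 and 2.18 CPM in S2 to at least 7.93 CPM in every S3 library, with 1 of the 5 at 0 in all 3 S3 libraries. The 6 megakaryocyte markers went from between 16.5 and 23.1 CPM to between 18.3 and 87.4 CPM, with 2 of the 6 at 0 in all 3 S3 libraries and 1, Itga2b, passing as higher. Itga2b no longer passed with library totals or without S3 replicate 3. The part of these endothelial and megakaryocyte markers in the differences of the 40 genes was not tested.

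**Figure D5:**
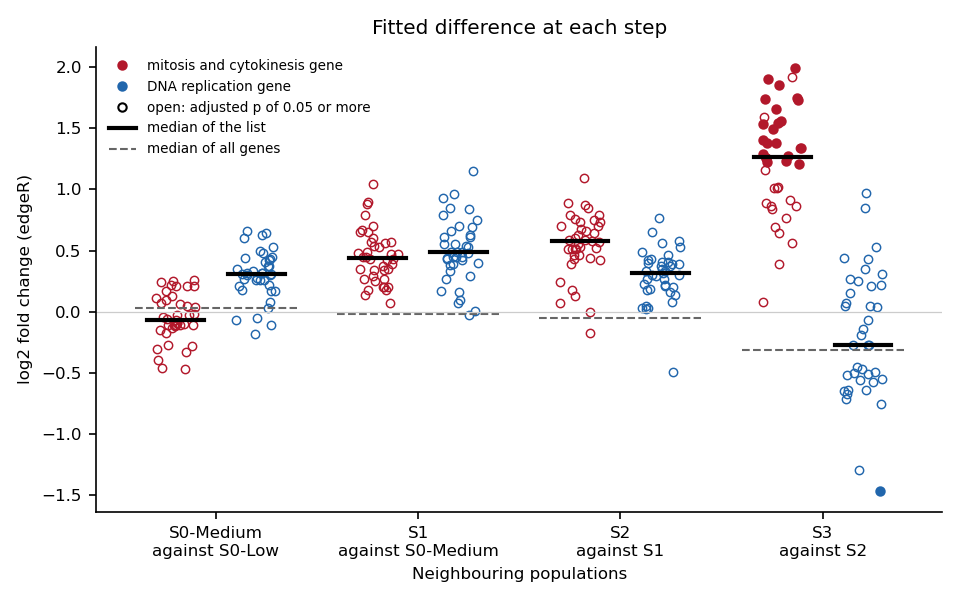
Log2 fold change from edgeR at each step between neighbouring populations, for each mitosis and cytokinesis gene (red) and each DNA replication gene (blue), filled where the adjusted p was under 0.05, with list medians as black bars and the median of all genes tested as a dashed line. The red median is -0.06 at the first step and 1.27 at the last, and the blue median is 0.31 at the first and -0.27 at the last.

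Between S3 and S1, both with high CD71, 37 of the 40 rose and 0 fell (7.21% of all genes rose and 12.1% fell), with a median of 1.85 against -0.47. With library totals the median was 1.14 against -1.11 and 24 rose (3.54% of all genes), while the calls over all genes went from 1193 higher and 1997 lower to 586 higher and 3900 lower. The 3 that did not pass were Mad2l1, Ttk and Kif20b. Over all 5 erythroid populations at once, 38 of the 40 differed (edgeR's quasi-likelihood F test, 24.6% of all genes), the exceptions again being Ttk and Kif20b, and 33 differed without S3 replicate 3 (18.7% of all genes).

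In Lin+ cells most of the 40 genes lay below their levels in S0-Low, without any single gene passing. The mean profile was between 6.67 and 6.91 in the Lin+ libraries and between 6.95 and 7.15 in those of S0-Low. Within all 3 same-numbered pairs S0-Low lay above Lin+ for 22 of the 40 genes (18.3% of all genes). Between Lin+ and S0-Low 0 of the 40 genes passed in either direction by edgeR (0.496% of all genes higher and 0.22% lower). DESeq2 also called 0 of the 40, where it called 2.66% of all genes higher and 0.727% lower. At an unadjusted p under 0.05 in edgeR, 1 was lower (Ccnb1, log2 difference -0.75), where 6.89% of all genes were higher and 2.96% lower. The median difference was -0.32 against 0.02 for all genes, and 35 of the 40 were below 0. The neutrophil and monocyte markers were above S0-Low in these Lin+ libraries, as given above, and so were those of other lineages. The macrophage markers summed to between 56.1 and 97.7 CPM against at most 2.69 CPM in S0-Low, the megakaryocyte ones to between 311 and 867 against 72.2 to 214 CPM, and the lymphoid ones to between 236 and 494 against 97 to 172 CPM. Their part in the differences of the 40 genes was not tested here either.

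DNA replication genes, which act in the S phase before mitosis, served as the comparison. Their mean log2(CPM + 0.5) over 40 genes was 6.61 ± 0.35 for S0-Low, 6.92 ± 0.22 for S0-Medium and 7.41 ± 0.28 for S1 (SD, n = 3). It was 7.70 ± 0.26 for S2, 7.50 ± 0.18 for S3 and 6.41 ± 0.28 for Lin+. The mean of the mitosis genes minus that of the replication genes was 0.42 ± 0.27 for S0-Low, 0.07 ± 0.10 for S0-Medium, 0.04 ± 0.10 for S1 and 0.25 ± 0.16 for S2. For S3 it was 1.63 ± 0.51, and the 3 libraries gave 1.30, 1.38 and 2.21. This difference within a library does not depend on how libraries were scaled, apart from the pseudocount, and the S3 libraries did not overlap those of any other population. Of the 39 replication genes that passed the filter, 20 rose and 0 fell between S3 and S0-Low (median 0.89, against 13.4% and 22.4% of all genes). With library totals 7 rose and 5 fell (median 0.06, against 6.98% and 37.6% of all genes). Between S3 and S2 0 rose and 1 fell, Gins2 (log2 difference -1.46 ± 0.43, edgeR adjusted p = 0.0467), where 3.26% of all genes rose and 6.09% fell, and the median was -0.27 against -0.31 for all genes. At an unadjusted p under 0.05, 2 were higher and 6 lower, where 8.96% of all genes were higher and 17.5% lower. With library totals 0 rose and 10 fell (1.74% of all genes rose and 13.7% fell) with a median of -0.77 against -0.82. Without S3 replicate 3, 15 rose and 0 fell between S3 and S0-Low (9.85% and 14.7% of all genes), and 0 passed between S3 and S2 (1.5% and 3.49% of all genes). Read against these shares, the counts between S3 and S2 give no result about the replication genes.

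Other genes of cell division were counted in lists that hold none of the 40, and their counts between S3 and S0-Low are to be read against the 13.4% of all genes that rose and the 22.4% that fell. The genes named are up to 4 of each list with the smallest p-values, and those that fell. All 8 condensin subunits, which compact mitotic chromosomes, rose between S3 and S0-Low (median 2.24), among them Ncaph (2.93 ± 0.39), Smc4 (2.60 ± 0.36), Ncapd3 (2.61 ± 0.38) and Smc2 (2.06 ± 0.31). Of 36 other kinetochore and centromere genes 31 rose and 0 fell (median 1.63), among them Spc25 (3.03 ± 0.49), Ska1 (2.18 ± 0.36), Knl1 (2.05 ± 0.34) and Kntc1 (1.90 ± 0.33). Of 27 other spindle and centrosome genes 25 passed the filter, and 19 of these rose and 0 fell (median 1.54), with Spag5 (2.34 ± 0.33), Kif18a (2.76 ± 0.40), Tacc3 (2.03 ± 0.31) and Kifc1 (2.82 ± 0.43) among them. Among 18 other regulators of G2 and M phase 12 rose and 1 fell, with Ccnf at 2.93 ± 0.37, Lin54 at 2.11 ± 0.33 and Gtse1 at 1.84 ± 0.30.

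The 18 subunits and regulators of APC/C held 4 genes that rose and 1 that fell, with a median of 0.39, where 13.4% of all genes rose and 22.4% fell. Set against those shares the counts give no result about the list. The 4 were Ube2s (2.45 ± 0.41) and Cdc27 (0.96 ± 0.27), parts of the ubiquitin machinery, the APC/C inhibitor Fbxo5 (3.03 ± 0.51) and the late activator Fzr1 (3.56 ± 0.63). Fzr1 stood at 83.6, 76.7 and 88.1 CPM in S0-Low and at 387, 779 and 1767 CPM in S3. The subunit Anapc4 fell by 1.11 on the log2 scale (edgeR adjusted p = 0.0467).

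Among 13 other cytokinesis genes 7 rose and 2 fell (median 0.82), where 13.4% of all genes rose and 22.4% fell. Cit, the citron kinase of the midbody, rose by 3.25 ± 0.35 on the log2 scale, Diaph3, an actin-nucleating formin, by 2.60 ± 0.43, and Rhoa, the GTPase that ECT2 switches on, by 1.68 ± 0.30. Cep55, which recruits the abscission machinery to the midbody, went the other way, at 44.8, 41.1 and 37.9 CPM in S0-Low, 27, 31.9 and 7.51 in S0-Medium and 10.9, 14.3 and 2.64 in S1. In S2 they were 6.98, 6.5 and 0.184 CPM, those in S3 0, 0 and 0 CPM and those in Lin+ 32.4, 40.1 and 44.2 CPM. Its 3 S3 libraries held 0 counts, so with a floor of 3 counts in the shallowest of them (0.227 CPM) it was at least 182-fold lower in S3 than in S0-Low (edgeR adjusted p = 0.000169). Septin9, a septin of the division furrow, was the other that fell, from 248, 158 and 71.3 CPM in S0-Low to 2.27, 1.85 and 8.45 CPM in S3. Pimreg, the 1 regulator of G2 and M phase that fell, stood at 55.2, 50.1 and 20.6 CPM in S0-Low, 22.3, 15.3 and 19.7 in S0-Medium and 11.6, 7.72 and 3.87 in S1. Levels in S2 were 3.68, 8.07 and 0 CPM, those in S3 0, 0 and 0.0575 CPM and those in Lin+ 79.1, 57.4 and 45.6 CPM. It held 1 count over the 3 S3 libraries.

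The counts of these lists depended on the scaling and on S3 replicate 3. With library totals the genes that rose between S3 and S0-Low were 7 of the condensin subunits, 13 of the other kinetochore genes with 1 lower, 12 of the other spindle genes, 6 of the G2 and M phase regulators with 2 lower, 3 of the APC/C list with 4 lower and 4 of the other cytokinesis genes with 3 lower, where 6.98% of all genes rose and 37.6% fell. The median of the APC/C list was then -0.48 and that of the other cytokinesis genes -0.03. Without S3 replicate 3 and with TMM, 8 condensin subunits, 21 other kinetochore genes, 15 other spindle genes, 9 G2 and M phase regulators with 1 lower, 4 of the APC/C list and 4 of the other cytokinesis genes with 3 lower passed, where 9.85% of all 17657 genes tested rose and 14.7% fell. Fzr1 still rose, by 2.80 ± 0.57 (edgeR adjusted p = 0.00244), and Anapc4 no longer passed (adjusted p = 0.146).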

How the data were processed

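Counts were estimated by the authors with Kallisto 0.43.0, which assigns reads to transcripts by shared words, and were deposited as whole-number estimated counts per gene, not normalized; the build in the processing notes is GRCm38, and the transcript set and the handling of introns are not given in the sources used here. Libraries were made with a stranded kit and 14 PCR cycles without molecular identifiers, so counting error understates the spread. Of the 54232 identifiers, 32651 had a symbol, and these held 98.7% of the counts. Groups and replicate numbers come from the labels; the study calls the replicates biological and does not say what a shared number stands for. The members and lists were chosen with earlier results of these data known.

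The 15 erythroid libraries entered one edgeR 4.0.16 fit (R 4.3.3) with population as the only factor, TMM scaling and filterByExpr (16555 genes), tested by the two-sided quasi-likelihood test with Benjamini-Hochberg adjustment at 0.05. Lin+ was set against S0-Low in a fit of the 18 libraries together (17755 genes). The study used DESeq2, here an alternative (1.42.0). The biological coefficient of variation common to all genes was 0.795 over 15 and 0.771 over 18 libraries, so small differences may be missed. A floor of 3 counts was 0.249 CPM in the shallowest library.

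Every one of the 40 genes is named. Values in every library are given for the 14 of them with the smallest adjusted p between S3 and S0-Low and the 3 with the smallest difference there. They are also given for Nusap1, with the largest difference there, and for Cdk1, Ccnb1, Plk1, Aurkb, Cdc20, Kif11, Top2a and Mki67. Of each other list at most 4 genes with the smallest p are named, together with genes that fell. Mean profiles use log2(CPM + 0.5) without a test. Shared words of 31 bases and transcript lengths come from a GENCODE annotation on another build (NCBIM37), used for nothing else; coordinates and promoters are RefSeq on GRCm38.p6. The fit was tested on simulated data. Same-numbered libraries deviated together over genes, with correlations from 0.171 to 0.553 in the comparisons of neighbouring populations, of S3 with S1 and of Lin+ with S0-Low. Between S3 and S0-Low they were 0.0837, 0.134 and 0.107, and the numbers were not taken to pair those libraries. The alternatives were RLE factors, library totals, no filter, a minimum of 10 counts per compared library, the replicate number as a block, a robust fit, globin genes left out, all 18 or only the 6 compared libraries, DESeq2, other pseudocounts, and each replicate left out; leaving out all replicate 3 libraries, and counting the other lists without S3 replicate 3, were added after seeing the data. Figures were drawn with matplotlib 3.10.9.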

Additional observations from a re-analysis of the deposited data

How the results depend on the processing

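Of 76 alternative counts of the 40 genes passing whose reported count was above 0, 70 stayed within 1.5 times it, while counts of some of the other lists moved more, as given beside them. The others were the 22 genes higher in S3 than in S2, which became 11 with library totals and 0 with only the 6 libraries compared and ranged from 4 to 28 with each replicate left out, and the 37 higher in S3 than in S1, which became 24 with library totals. With each replicate left out the count between S3 and S0-Low ranged from 34 to 39, where the share of all genes that rose ranged from 9% to 12.3%. The count between S3 and S1 ranged from 28 to 37, where that share ranged from 3.36% to 6.59%. No single gene that passed between S3 and S0-Low or between S3 and S2 changed direction under any alternative run. Directions of single genes were not compared in this way for the other comparisons. Between S3 and S0-Low, Ttk also no longer passed with no filter or with the minimum of 10 counts. With only the 6 libraries compared 34 of the 40 passed, where 10.5% of all genes rose. With library totals the mean profile differed by 1.26 between S3 and S0-Low in place of 2.10, by 1.05 between S3 and S1 in place of 1.69, and by 0.68 between S3 and S2 in place of 1.18. In the same order, that of the replication genes became 0.08 in place of 0.90, -0.53 in place of 0.10 and -0.68 in place of -0.20. The replicate block gave 32 genes higher in S3 than in S2 in place of 22 (7.3% of all genes rose). It moved no count of the 40 genes by over 1.5 times, and between S3 and S0-Low it gave 39 (15.9% of all genes). Leaving out all replicate 3 libraries, chosen after seeing the data, gave 37 between S3 and S0-Low (13.7% of all genes rose) and 29 between S3 and S2 (7.33%). Why these counts moved was not tested.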
